A study of Mus musculus with 6 samples.

Results

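SWI/SNF chromatin remodellers exist in several classes that share a core and differ in a few subunits. The 10 genes described here encode the subunits that define the PBAF class (Pbrm1, Brd7) and the GBAF class (Brd9, Bicra, Bicral), a subunit of both canonical BAF and GBAF (Ss18), and subunits found in all classes (Bcl7a, Bcl7b, Bcl7c, Actl6a). They were taken by name from the deposited table, by matching NCBI gene numbers to symbols. All 10 were found among its 17558 genes, as 97 of 57920 RefSeq transcripts. The rule uses names alone, but the members were chosen with earlier results of these data known.

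RNA was sequenced from C2C12, an immortal mouse myoblast line whose cells withdraw from the cell cycle and fuse into myotubes when growth serum is replaced by a low-serum medium. All 6 libraries came from cells labelled WT in genotype that stably carried a short hairpin RNA and were harvested 48 h after differentiation had been induced. The hairpin was scrambled (shScr, 2 libraries), or directed against Pkm1 (shPkm1, 2 libraries) or Pkm2 (shPkm2, 2 libraries), which are made from the pyruvate kinase gene Pkm by alternative splicing, to ask what each isoform does in myoblast differentiation. The labels do not say whether a line was a pool or 1 clone, how many hairpins were used, or whether the libraries of a group came from separate cultures. The p-values therefore measure the spread between these libraries, which may be technical.

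SWI/SNF complexes use the energy of ATP to move or evict nucleosomes, which opens promoters and enhancers. In myoblasts they are recruited with MyoD to muscle genes. PBAF is set apart by PBRM1, which reads acetylated histones through a row of bromodomains, and by BRD7. GBAF, also called ncBAF, is set apart by BRD9 and by GLTSCR1 or GLTSCR1L, the products of Bicra and Bicral. The BCL7 proteins bind the ATPase module and ACTL6A (BAF53A) is an actin-related protein of that module. Its paralogue ACTL6B takes its place in neurons.

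Libraries held between 18216896 and 19796036 estimated counts. CPM below are counts scaled to library size with TMM factors, and TPM are the authors' values per transcript length. The groups differed in state far beyond these genes. The summed CPM of 20 muscle genes was 40273 to 58171 in shScr, 15737 to 17953 in shPkm1 and 1608 to 1677 in shPkm2, and all 20 were lower in each of the 3 comparisons. The summed CPM of 20 proliferation genes was 860 to 1008, 1452 to 1492 and 3772 to 3921. Myog, a myogenic transcription factor, had CPM of 2336 and 1988 in shScr, 1097 and 1162 in shPkm1, and 49.2 and 56.9 in shPkm2. Mki67, a marker of cycling cells, had CPM of 67.7 and 81.0, 203 and 206, and 613 and 501 in the same order. The 5 myoblast markers summed to 2443 and 2649 CPM in shScr, 1438 and 1577 in shPkm1, and 866 and 884 in shPkm2. Against shScr, 3 were called lower and 1 higher in shPkm1, and 3 lower and 2 higher in shPkm2. Marker lists of other mesenchymal cells were low but moved with the groups. The 5 fibroblast markers summed to 10.1 and 10.5 CPM in shScr, 48.0 and 48.7 in shPkm1, and 37.0 and 35.6 in shPkm2, and the 4 tested were called higher in shPkm1, while in shPkm2 1 was called higher and 2 lower. The 5 osteoblast markers summed to 14.5 and 21.2, 45.7 and 39.5, and 44.6 and 40.2 CPM, with Ibsp at 0 in every library, and the 5 adipocyte markers to 11.7 and 10.7, 24.3 and 27.4, and 26.1 and 23.3. Their part in the results below was not tested. Endothelial markers and the 1 haematopoietic marker in the table summed to at most 2.34 CPM. A neuron list summed to 62.2 and 54.0 CPM in shScr, 41.9 and 47.1 in shPkm1, and 416 and 457 in shPkm2. The shPkm2 sums were mostly Stmn2, and Snap25 was at 0 in every library. Of the 3 tested, 1 was called higher and 1 lower in shPkm1 against shScr, and 2 higher in shPkm2. Differentiation state and group cannot be told apart in this design. In bulk RNA, fewer cells of one state and less RNA per cell cannot be told apart either.

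The labels were checked against the Pkm isoforms. The Pkm1 transcript (NM_001253883.1) had CPM of 980 and 958 in shScr, 315 and 300 in shPkm1, and 314 and 334 in shPkm2. It was lower than in shScr in both hairpin groups (log2 fold change -1.66, adjusted p = 0.00272, and -1.58, adjusted p = 0.00124). The Pkm2 transcript (NM_011099.3) had CPM of 1927 and 2468, 1656 and 1895, and 3330 and 3452. Libraries labelled shPkm2 did not have less of it (0.63, adjusted p = 0.0656), so any direction for that group below rests on a label that its target did not bear out. In the text below, shPkm2 stands for the libraries labelled shPkm2.

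RefSeq gives the sequence around the start of transcription (GRCm38.p6) for 6 of the 10 genes. Windows run from 250 bases before to 50 bases after the start. Those of Pbrm1 (chr14:31018888-31019187, plus strand) and Brd9 (chr13:73937561-73937860, plus strand, the first of its 2 listed starts) are shown because these members were higher in both hairpin groups. That of Actl6a (chr3:32708296-32708595, plus strand) is shown because it was lower in shPkm1 and higher in shPkm2 under the scaling used. Capitals mark matches to the motifs searched, on either strand.
Pbrm1: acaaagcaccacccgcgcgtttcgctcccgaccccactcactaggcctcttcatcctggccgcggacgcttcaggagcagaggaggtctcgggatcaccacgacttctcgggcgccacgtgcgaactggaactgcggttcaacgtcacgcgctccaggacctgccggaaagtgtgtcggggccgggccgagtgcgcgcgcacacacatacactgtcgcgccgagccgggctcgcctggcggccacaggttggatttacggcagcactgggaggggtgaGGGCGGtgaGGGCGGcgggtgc
Brd9: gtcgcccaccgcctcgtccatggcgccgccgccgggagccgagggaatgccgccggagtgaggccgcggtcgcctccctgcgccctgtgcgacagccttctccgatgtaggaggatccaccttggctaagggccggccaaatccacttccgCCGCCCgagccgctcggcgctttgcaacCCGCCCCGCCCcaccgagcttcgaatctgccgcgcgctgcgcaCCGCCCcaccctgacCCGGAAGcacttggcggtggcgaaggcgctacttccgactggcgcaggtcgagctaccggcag
Actl6a: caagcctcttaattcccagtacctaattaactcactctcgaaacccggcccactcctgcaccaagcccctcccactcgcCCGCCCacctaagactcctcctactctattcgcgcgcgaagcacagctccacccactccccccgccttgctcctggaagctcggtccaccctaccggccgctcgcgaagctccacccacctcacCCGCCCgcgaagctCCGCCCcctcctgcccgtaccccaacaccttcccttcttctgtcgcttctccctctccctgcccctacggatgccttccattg
These 3 windows are rich in G and C, with 68.0% GC and 35 CpG in Pbrm1, 72.0% and 40 in Brd9, and 63.7% and 21 in Actl6a, against medians of 52.7% and 7 over 32851 promoters of the same length.

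Motifs searched on both strands were CAGCTG (an E-box bound by MyoD and myogenin), CCAAT (the NF-Y box), GGGCGG (the GC box), TTTGGCGC and TTCCCGCC (E2F) and CCGGAAG (ETS). All 6 windows held 63.7% to 78.7% GC, above the median of 52.7% over all promoters. GGGCGG occurred in the window of every one of the 6 genes, and in 35.7% of all promoters, a share not matched for GC. In Pbrm1 it began 29 and 38 bases from the start site, in Actl6a 171, 47 and 33 bases before it, in Brd7 137 and 118 bases before it. Bcl7b and Bcl7c each had 3 matches, and in Bcl7b 2 of them overlapped. The Brd9 window held 4 matches to GGGCGG, of which 2 overlapped, and CCGGAAG 13 bases before the start, which 8.86% of all promoters hold. CAGCTG was found in the Bcl7c window alone, 104 bases before the start, and in 16.3% of all promoters. CCAAT, TTTGGCGC and TTCCCGCC (in 37.4%, 0.514% and 2.19% of all promoters) were in none of the 6 windows. A match is a description of letters and not a bound site.

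In shScr cells the 10 genes spanned from 114 TPM (mean of 2 libraries) for Bcl7c to 2.46 TPM for Bicral. Between these came Brd7 at 57.0, Actl6a at 35.7, Bcl7b at 25.6, Ss18 at 21.9, Brd9 at 15.2, Pbrm1 at 10.3, Bicra at 9.13 and Bcl7a at 7.79 TPM. Neighbours whose libraries overlapped were Bcl7b and Ss18, Pbrm1 and Bicra, and Bicra and Bcl7a. Bcl7c stayed the most abundant and Bicral the least abundant in all 3 groups. In shPkm1 the means fell in the order Bcl7c 107, Brd7 81.6, Actl6a 37.6, Ss18 32.3, Bcl7b 32.3, Brd9 26.1, Pbrm1 20.5, Bicra 9.79, Bcl7a 9.43 and Bicral 6.67 TPM, with overlap between Ss18 and Bcl7b and between Bicra and Bcl7a. In shPkm2 they fell in the order Bcl7c 115, Actl6a 75.0, Brd7 58.7, Ss18 57.0, Brd9 31.2, Pbrm1 30.8, Bcl7b 28.4, Bicra 11.5, Bcl7a 6.47 and Bicral 5.56 TPM. There the libraries of Brd7 and Ss18, of Brd9 and Pbrm1, and of Pbrm1 and Bcl7b overlapped. Among paralogues, Actl6b had no count in any library.

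**Figure D1:**
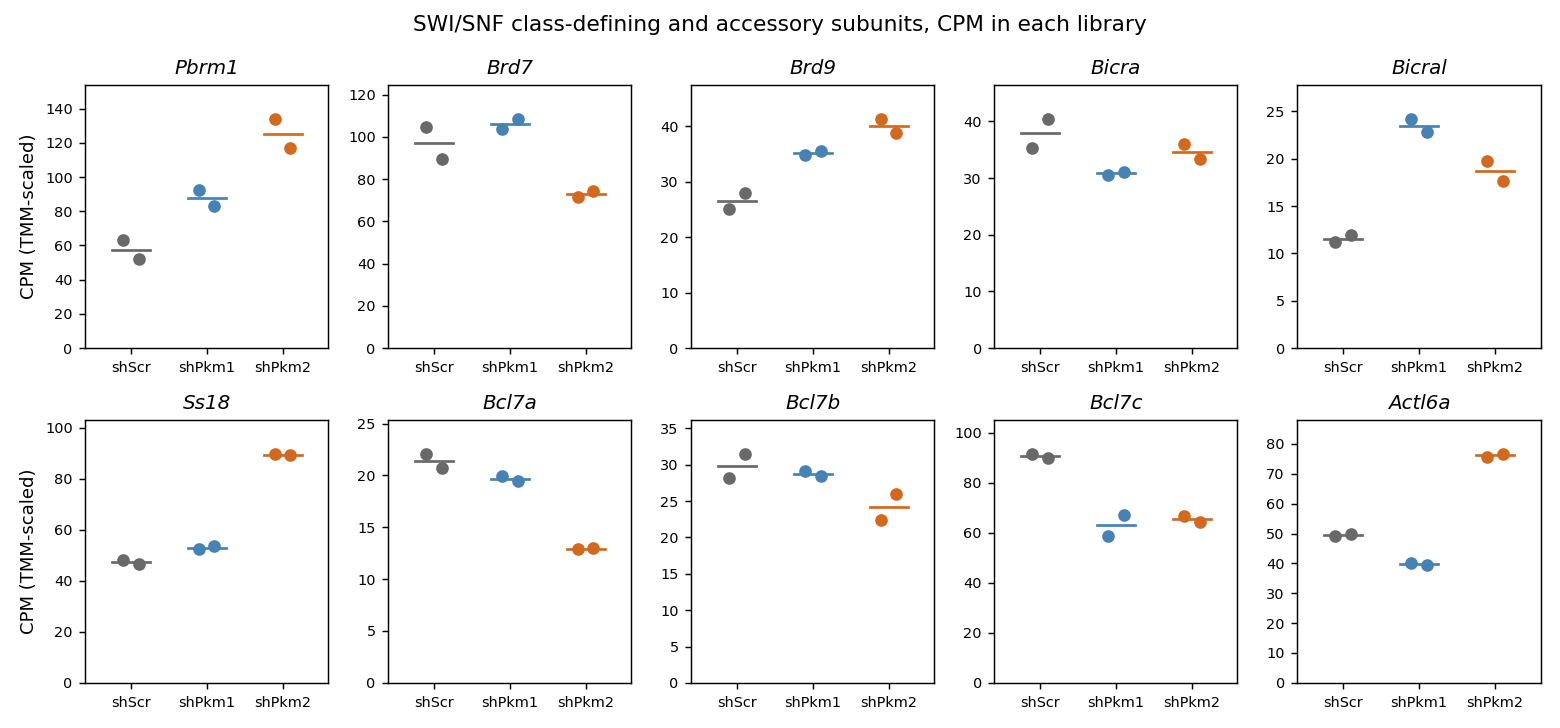
CPM (counts scaled to library size with TMM factors) of the 10 subunit genes; each point is 1 library, bars are the means of 2 libraries, and each panel has its own axis from 0. Pbrm1 sits at 51.8 and 63.3 in shScr and at 117 and 134 in shPkm2, and Actl6a was low in shPkm1 and high in shPkm2.

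Against shScr, 6 of the 10 genes passed the test in shPkm1, 3 higher and 3 lower, where 63.1% of the 12643 genes tested passed (31.8% higher, 31.4% lower). In shPkm2, 9 passed, 5 higher and 4 lower, where 68.0% of all genes passed (33.9% higher, 34.2% lower). Between shPkm2 and shPkm1, 6 passed, 3 in each direction, where 53.0% of all genes passed (25.7% higher, 27.3% lower). In shPkm1 and between the hairpin groups these counts lie near the background. The larger count in shPkm2 shrinks to 6 with library totals, where 8797 of the 12643 genes passed. The median log2 fold changes of the 10 genes were 0.04, 0.23 and 0.11, beside -0.00, 0.01 and 0.00 over all genes. Libraries did not overlap for 8, 9 and 9 members, where 81.0%, 83.9% and 79.8% of all genes did not overlap. The 2 comparisons with shScr share their control libraries.

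The scaling bears on the direction of several members. Scaling by library totals in place of TMM moved the median of all genes by 0.19, 0.32 and 0.13 (log2) in the 3 comparisons. It also raised the share of calls that were higher from 50.3% to 65.8%, from 49.8% to 69.3% and from 48.4% to 61.3%. Of the members, 5 were then higher and 1 lower in shPkm1, 5 higher and 1 lower in shPkm2, and 4 higher and 2 lower between the hairpin groups. Of the 12643 genes tested, 5116 were then called higher and 2656 lower in shPkm1, and 6095 and 2702 in shPkm2. Between the hairpin groups the counts were 4280 and 2699. Over 15 alternatives of scaling, filter, tool and left-out libraries, 4 members kept their call in shPkm1 (Pbrm1, Brd9 and Bicral higher, Bcl7c lower). In shPkm2, 6 kept it (Pbrm1, Brd9, Bicral, Ss18 and Actl6a higher, Bcl7a lower), and between the hairpin groups 5 did (Pbrm1, Ss18 and Actl6a higher, Brd7 and Bcl7a lower). With TMM, the calls of Bicral were lost when 1 of its transcripts was removed, as described with that gene. In every one of the 30 member values, both fits on FPKM gave the same call as library totals.

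**Figure D2:**
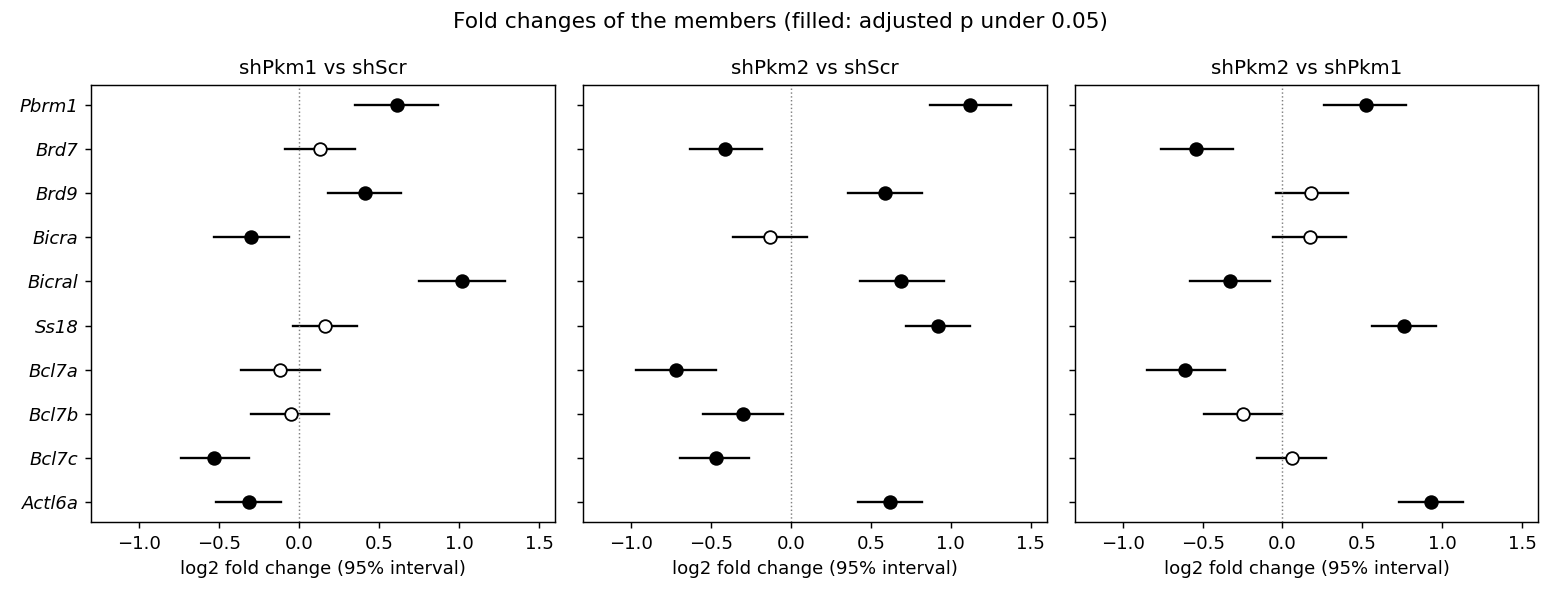
Log2 fold change of each gene in the 3 comparisons with its 95% interval from the fit; filled points have an adjusted p under 0.05 over all genes tested. Pbrm1 is to the right of 0 in all 3 panels, and Actl6a lies at -0.31 in shPkm1 and at 0.62 in shPkm2 against shScr.

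Of the 2 PBAF members, Pbrm1 rose in both hairpin groups and Brd7 did not follow it. Pbrm1 (gene 66923; GRCm38 chr14:31019138-31121592, plus strand) had CPM of 63.3 and 51.8 in shScr, 92.5 and 83.0 in shPkm1, and 134 and 117 in shPkm2. The groups did not overlap, and shPkm1 lay between the others. Its log2 fold change was 0.61 in shPkm1 (95% interval 0.35 to 0.87, adjusted p = 6.44e-04) and 1.12 in shPkm2 (0.87 to 1.38, adjusted p = 2.32e-06). Pbrm1 was also higher in shPkm2 than in shPkm1 (0.52, interval 0.26 to 0.77, adjusted p = 0.00225). On the TPM scale its levels were 10.9 and 9.79, 22.3 and 18.8, and 33.5 and 28.0. Of its 50 transcripts in the table, 4 were at 0 in every library, and the most abundant one held 7.56% to 11.5% of them.

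Brd7 (gene 26992; chr8:88331039-88362194, minus strand) had CPM of 105 and 89.7 in shScr, 104 and 108 in shPkm1, and 71.7 and 74.6 in shPkm2. In CPM the shPkm2 libraries stood apart from the rest. In TPM it was shPkm1 that stood apart, at 82.1 and 81.0, with shScr at 58.1 and 56.0 and shPkm2 at 59.1 and 58.3. Brd7 was lower in shPkm2 than in shPkm1 (log2 fold change -0.54, interval -0.76 to -0.31, adjusted p = 6.60e-04), which held under every alternative. Against shScr it was lower in shPkm2 (-0.41, adjusted p = 0.00328), but with library totals the value was -0.08 (adjusted p = 0.498). In shPkm1 the difference from shScr was 0.13 (interval -0.09 to 0.35, adjusted p = 0.289). That value was called under 4 of 15 alternatives: library totals (0.33, adjusted p = 0.0120), both fits on FPKM (0.31 and 0.32, adjusted p = 0.0108 for each) and without the first shScr library (0.24, adjusted p = 0.0445). The transcript NM_012047.2 held 92.4% to 95.6% of Brd7 counts.

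Of the GBAF subunits, Brd9 and Bicral were higher in both hairpin groups and Bicra was not. Brd9 (gene 105246; chr13:73937811-73960895, plus strand), a bromodomain protein, had CPM of 25.1 and 27.9 in shScr, 34.8 and 35.5 in shPkm1, and 41.2 and 38.7 in shPkm2. All hairpin libraries lay above both shScr libraries. The log2 fold change was 0.41 in shPkm1 (interval 0.18 to 0.64, adjusted p = 0.00467) and 0.59 in shPkm2 (0.36 to 0.82, adjusted p = 2.35e-04). Between the hairpin groups it was 0.18 (interval -0.04 to 0.41, adjusted p = 0.147), and it was called with library totals (0.32, adjusted p = 0.0330). Brd9 and Brd7 are paralogues that mark different classes, and the ratio of Brd9 to Brd7 in TPM was 0.231 and 0.303 in shScr, 0.321 and 0.317 in shPkm1, and 0.561 and 0.503 in shPkm2. The ratio does not depend on the scaling between libraries, and its groups did not overlap.

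Bicra (gene 243842; chr7:15970672-16047921, minus strand) had CPM of 35.4 and 40.4 in shScr, 30.5 and 31.2 in shPkm1, and 36.0 and 33.4 in shPkm2. Bicra fell in shPkm1 against shScr (-0.30, interval -0.53 to -0.06, adjusted p = 0.0277). The call was lost under 10 of 15 alternatives, among them library totals (-0.11, adjusted p = 0.469), leaving out the second shScr library (-0.20, adjusted p = 0.152) and leaving out either library of shPkm1 (adjusted p = 0.142 and 0.0914) or of shPkm2 (0.0547 and 0.0544). In shPkm2 the difference from shScr was -0.13 (interval -0.36 to 0.10, adjusted p = 0.296), and the value was 0.19 with library totals. The difference between the hairpin groups was 0.17 (interval -0.06 to 0.40, adjusted p = 0.204).

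Bicral (gene 210982; chr17:46798120-46858482, minus strand) had CPM of 11.2 and 11.9 in shScr, 24.2 and 22.8 in shPkm1, and 19.8 and 17.7 in shPkm2. The groups did not overlap, with shPkm1 highest. Bicral was 2.03-fold higher in shPkm1 (log2 fold change 1.02, interval 0.75 to 1.29, adjusted p = 1.12e-05) and 1.62-fold higher in shPkm2 (0.69, interval 0.43 to 0.96, adjusted p = 2.42e-04). It was lower in shPkm2 than in shPkm1 (-0.33, adjusted p = 0.0301). That last call was lost under 8 of 15 alternatives, among them library totals (-0.20, adjusted p = 0.205) and leaving out either library of shPkm1 (adjusted p = 0.137 and 0.0715) or of shPkm2 (0.0566 and 0.217). The ratio of Bicra to Bicral in TPM was 3.59 and 3.81 in shScr, 1.43 and 1.51 in shPkm1, and 2.06 and 2.09 in shPkm2.

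A large part of the rise of Bicral lay in 1 predicted transcript. Of its 8 transcripts, XM_017317377.1 had 1.69 and 2.07 estimated counts in shScr, 136 and 246 in shPkm1, and 130 and 93.1 in shPkm2. It made up 0.955% and 0.981% of Bicral counts in shScr, 30.0% and 54.4% in shPkm1, and 30.9% and 25.1% in shPkm2. Summed over a group, its rounded counts were 381 in shPkm1 and 223 in shPkm2 against 4 in shScr, and scaled for library size the ratios were 82.7 (95% exact interval of counting error alone, 32.0 to 305) and 44.2 (17.0 to 164). By the test of a transcript against its gene, it differed from Bicral as a whole in both hairpin groups (adjusted p = 0.0367 and 0.0329). The transcript also passed the fit across 33433 transcripts in shPkm1 (adjusted p = 0.00816) and shPkm2 (adjusted p = 0.00521). The first of these calls was lost when either shPkm1 library was left out, with adjusted p up to 0.0555. With this transcript removed, which was an alternative chosen after the data had been seen, Bicral had 175 and 209 counts in shScr, 318 and 206 in shPkm1, and 290 and 278 in shPkm2. In these counts, not scaled for library size, 1 shPkm1 library lay within the range of shScr and both shPkm2 libraries lay above it. In TPM the remainder was 2.21 and 2.66 in shScr, 4.79 and 2.80 in shPkm1, and 4.07 and 3.79 in shPkm2, with both hairpin groups above shScr. With TMM the log2 fold changes became 0.25 (adjusted p = 0.262), 0.23 (adjusted p = 0.289) and -0.02 (adjusted p = 0.938), so that none of the 3 calls held. With library totals they became 0.45 (adjusted p = 0.0688), 0.56 (adjusted p = 0.0246) and 0.11 (adjusted p = 0.667), so that the rise in shPkm2 was called on that scale. The other main transcripts were NM_001100452.1, with 60.9 and 76.1, 197 and 60.6, and 106 and 76.1 counts, and XM_006523976.3, with 98.5 and 123, 98.6 and 123, and 148 and 120. Counts of single transcripts are estimates that split reads among overlapping models, and 1 library of shPkm2 alone had counts (71.8) for XM_011246345.2.

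**Figure D3:**
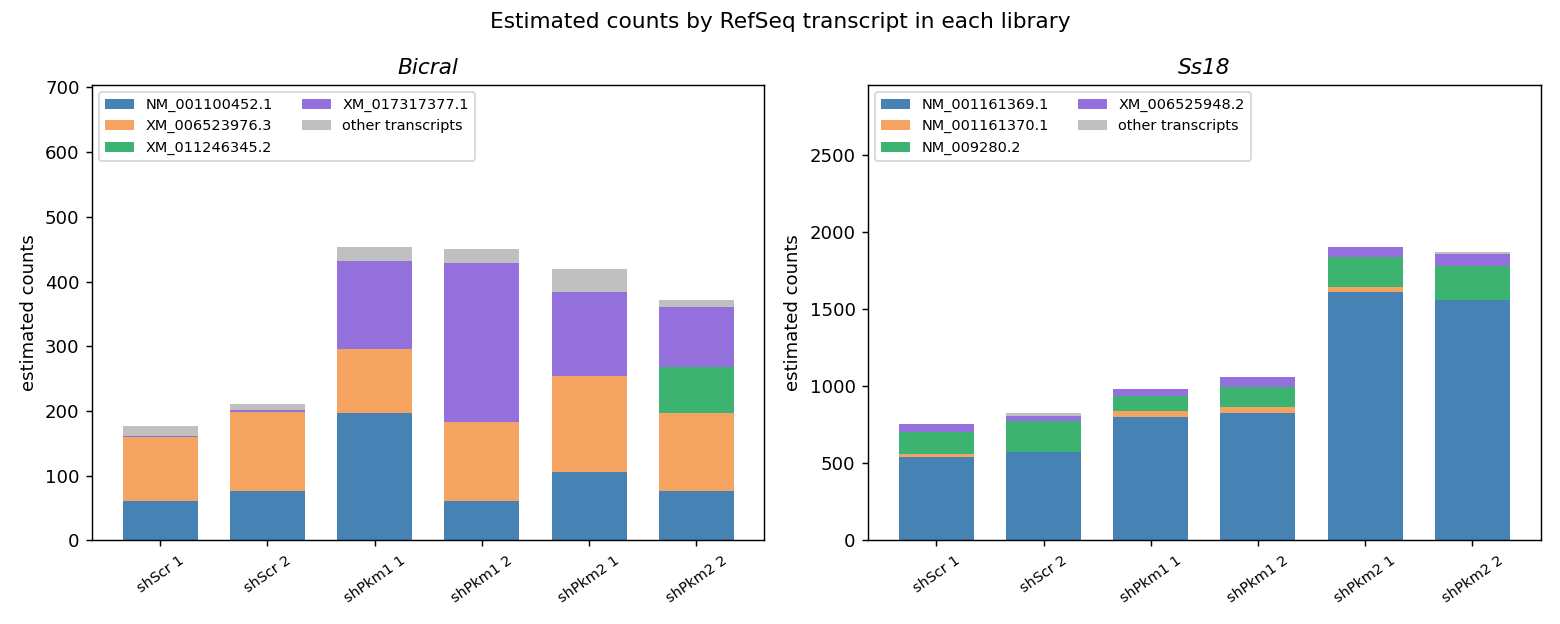
Estimated counts (not scaled for library size) of Bicral (left) and Ss18 (right) in each library, stacked by RefSeq transcript, with the remaining transcripts in grey. XM_017317377.1 is nearly absent from the Bicral bars of shScr (1.69 and 2.07 counts), and the growth of the Ss18 bars lies in NM_001161369.1.

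Ss18, a subunit of canonical BAF and GBAF known as the partner in the fusion protein of synovial sarcoma, rose in shPkm2. The gene (268996, chromosome 18, minus strand) had CPM of 48.0 and 46.6 in shScr, 52.3 and 53.5 in shPkm1, and 89.6 and 89.2 in shPkm2. The shPkm2 libraries stood well above the others. The log2 fold change in shPkm2 was 0.92 against shScr (interval 0.72 to 1.12, adjusted p = 1.47e-06) and 0.76 against shPkm1 (0.56 to 0.96, adjusted p = 1.36e-05). In shPkm1 it was 0.16 (interval -0.04 to 0.36, adjusted p = 0.150), and with library totals it was called (0.36, adjusted p = 0.00702). The ratio of Ss18 to its paralogue Ss18l1 in TPM was 16.2 and 15.5 in shScr, 17.8 and 17.6 in shPkm1, and 28.6 and 25.6 in shPkm2. Ss18l1 itself gave 0.00 (adjusted p = 1.00), 0.16 (adjusted p = 0.485) and 0.16 (adjusted p = 0.508).

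Transcripts of Ss18 differ by an in-frame exon of 93 bases, exon 8 of NM_009280.2, which adds 31 codons. NM_009280.2 encodes 418 residues, and NM_001161369.1, which lacks that exon, encodes 387. The predicted transcript XM_006525948.2 was not matched to an exon model and is left out of the counts by exon. Transcripts with the exon had 162 and 199 estimated counts in shScr, 138 and 164 in shPkm1, and 222 and 219 in shPkm2. Those without it had 539 and 595, 798 and 829, and 1613 and 1572. The share without the exon was therefore 76.9% and 75.0% in shScr, 85.3% and 83.5% in shPkm1, and 87.9% and 87.8% in shPkm2, and the groups did not overlap. NM_001161369.1 rose in shPkm1 (log2 fold change 0.38, adjusted p = 0.0347), in shPkm2 (1.20, adjusted p = 0.00155) and between them (0.83, adjusted p = 0.00633). The first of these was called under 6 of 15 alternatives only, and it was lost without any one of the 6 libraries. The third was lost without either library of either hairpin group. NM_009280.2 gave -0.77 (adjusted p = 0.181), -0.01 (adjusted p = 0.997) and 0.76 (adjusted p = 0.217). None of the 5 Ss18 transcripts differed from its gene by the test across 28695 transcripts (lowest adjusted p = 0.617, for NM_001161371.1 in shPkm1). That test takes transcripts singly and sets each against its whole gene. The fold of a gene follows its most abundant transcript. For Ss18 this is NM_001161369.1, with 69.6% to 84.7% of the counts, so the test could hardly see a change of it. The exon share itself was not tested. A second in-frame exon, of 222 bases (exon 5 of NM_009280.2), was absent from 3.42% and 2.61% of these counts in shScr, 4.58% and 3.69% in shPkm1, and 1.58% and 0.90% in shPkm2. The groups did not overlap there either, with shPkm1 above shScr and shPkm2 below it, on 16.1 to 42.9 counts per library.

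The BCL7 subunits, which are shared by all classes, were lower or did not pass in the comparisons with shScr. Bcl7a (gene 77045; chr5:123343834-123374992, plus strand) had CPM of 22.1 and 20.7 in shScr, 20.0 and 19.4 in shPkm1, and 12.9 and 13.0 in shPkm2. The shPkm2 libraries lay below the other 4. Its log2 fold change in shPkm2 was -0.72 against shScr (interval -0.97 to -0.47, adjusted p = 9.85e-05) and -0.61 against shPkm1 (-0.85 to -0.36, adjusted p = 6.38e-04), and both held under every alternative. With library totals the first was -0.40. In shPkm1 the value was -0.12 (interval -0.36 to 0.13, adjusted p = 0.381), and it turned to 0.08 with library totals. Bcl7a was the one subunit of the 10 that was lower in TPM in shPkm2 (6.62 and 6.32) than in both other groups (7.57 and 8.01, and 9.82 and 9.03).

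Bcl7b (gene 12054; chr5:135168283-135181855, plus strand) had CPM of 28.1 and 31.5, 29.1 and 28.4, and 22.4 and 26.0. It was lower in shPkm2 than in shScr (-0.30, interval -0.55 to -0.05, adjusted p = 0.0324), but with library totals the value turned to 0.02 (adjusted p = 0.890). The call held under 6 of 15 alternatives, and was also lost without the second shScr library (adjusted p = 0.136), without either shPkm1 library (0.0540 and 0.0534) and without the first shPkm2 library (0.285). In shPkm1 the value was -0.05 (interval -0.30 to 0.19, adjusted p = 0.702), 0.14 with library totals and 0.03 without the second shScr library. Between the hairpin groups it was -0.25 (adjusted p = 0.0842), and it was called without either shScr library (adjusted p = 0.0339 and 0.0346) or without both (0.0324).

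Bcl7c (gene 12055; chr7:127661456-127708933, minus strand) had CPM of 91.5 and 90.1 in shScr, 58.8 and 67.3 in shPkm1, and 66.7 and 64.3 in shPkm2. The hairpin groups overlapped each other and lay below shScr. The log2 fold change was -0.53 in shPkm1 (interval -0.74 to -0.31, adjusted p = 4.93e-04) and -0.47 in shPkm2 (-0.69 to -0.26, adjusted p = 9.01e-04). With library totals these were -0.33 (adjusted p = 0.0127) and -0.15 (adjusted p = 0.219). Between the hairpin groups it was 0.06 (interval -0.16 to 0.27, adjusted p = 0.661), and -0.05 without the first shPkm1 library. In TPM all 3 groups overlapped, at 107 and 121, 102 and 111, and 120 and 111.

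Actl6a (gene 56456; chr3:32706298-32726973, plus strand) was called lower in 1 hairpin group and higher in the other, though the fall depended on the scaling. Its CPM were 49.3 and 49.9 in shScr, 40.3 and 39.6 in shPkm1, and 75.6 and 76.6 in shPkm2, with no overlap. The log2 fold change was -0.31 in shPkm1 (interval -0.52 to -0.11, adjusted p = 0.0117) and 0.62 in shPkm2 (0.42 to 0.82, adjusted p = 5.68e-05). The direct comparison of shPkm2 with shPkm1 gave 0.93 (0.73 to 1.13, adjusted p = 2.47e-06). The fall in shPkm1 was not called with library totals (-0.12, adjusted p = 0.341), nor without either shPkm1 library (adjusted p = 0.0659 and 0.0745). The rise in shPkm2 and the difference between the hairpin groups held under every alternative. In TPM Actl6a was 33.2 and 38.1, 39.0 and 36.3, and 76.6 and 73.4, so that shScr and shPkm1 overlapped on that scale. NM_019673.2 carried 94.5% to 98.0% of its counts and encodes 429 residues. The part of cell state in these values was not tested.

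**Figure D4:**
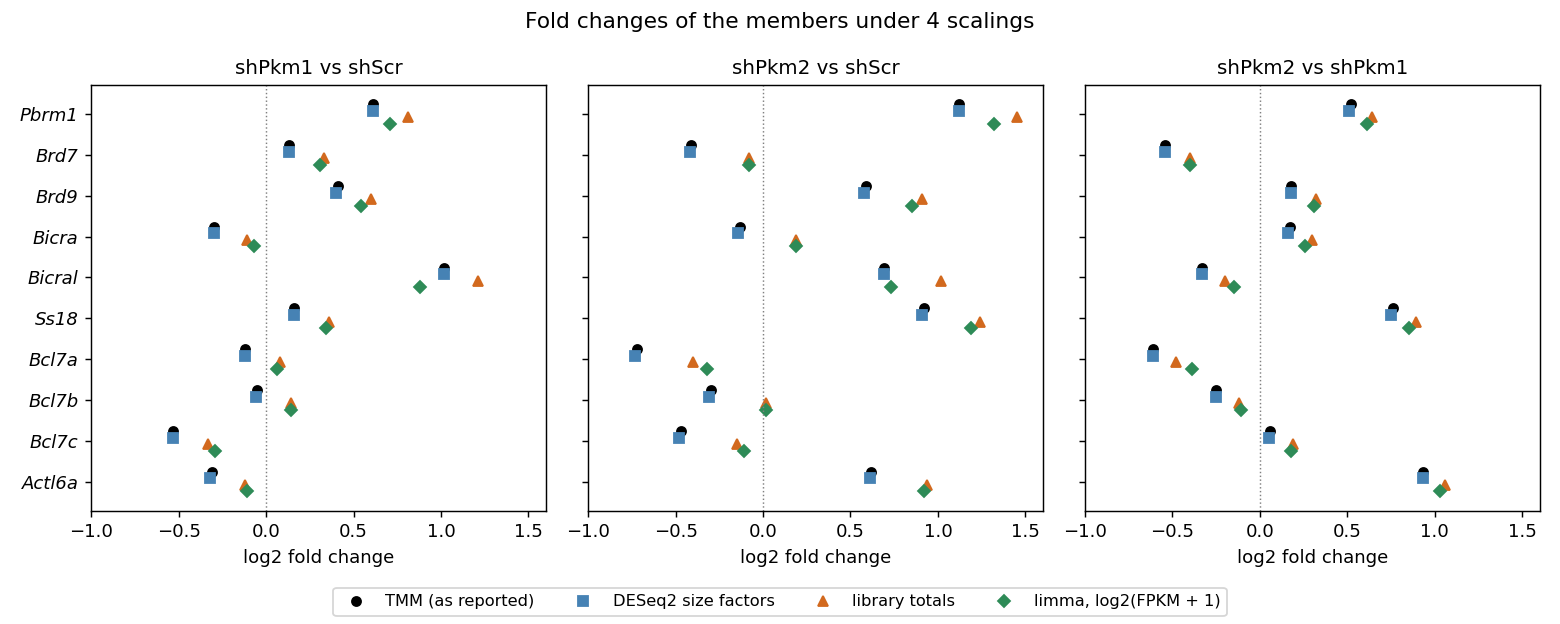
Log2 fold change of each gene under TMM scaling (as reported), DESeq2 size factors, library totals, and limma on log2(FPKM + 1). Library totals and FPKM move most points to the right: Bcl7b in shPkm2 against shScr goes from -0.30 to 0.02, while Pbrm1, Ss18 and Bcl7a keep their side in that panel.

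Of the 97 transcripts of the 10 genes, 11 were at 0 in every library and 68 passed the filter on low counts. Against shScr, 4 passed the test in shPkm1, where 10.8% of 33433 transcripts passed, and 7 in shPkm2, where 17.2% did. Between the hairpin groups 3 passed, where 7.91% did. The test of a transcript against its gene called 0.411%, 1.10% and 0.526% of transcripts. Of the members it called XM_017317377.1 of Bicral alone, in both comparisons with shScr. A change of the most abundant transcript is hardly seen by this test, since the fold of the gene follows that transcript. Of the 46 Pbrm1 transcripts with a count in any library, 15 were listed at 0 in both shScr libraries, 5 in both of shPkm1 and 9 in both of shPkm2. The 2 that were called are among those at 0 in shScr. XM_006519416.1 had 42.1 and 37.6 counts in shPkm1 and 117 and 80.3 in shPkm2 (adjusted p = 0.0210 and 0.0108 against shScr). XM_017316155.1 had 10.3 and 38.0, and 62.7 and 59.5 (adjusted p = 0.0341 in shPkm2). Neither differed from Pbrm1 as a whole by the test of a transcript against its gene. Besides these and NM_001161369.1 of Ss18, calls fell on the main transcripts of Actl6a and Brd7 (NM_019673.2 and NM_012047.2), and on Bcl7a NM_029850.3 and Bcl7c NM_009746.2, in the direction of their genes. No Brd9 or Bicra transcript was called. The calls of NM_001161369.1 of Ss18 and XM_017317377.1 of Bicral in shPkm2 against shScr held under all 15 alternatives (highest adjusted p 0.0224 and 0.0344). Each of the other transcript calls was lost when certain single libraries were left out. Those of XM_017316155.1 and of Bcl7a and Bcl7c were lost without any 1 of the 6 libraries (adjusted p up to 0.146, 0.136 and 0.478 over all alternatives). Those of Brd7 and of Actl6a between the hairpin groups, and that of XM_006519416.1 in shPkm1, were lost without any 1 of the 4 hairpin libraries (up to 0.220, 0.0618 and 0.146). Those of Actl6a and XM_006519416.1 in shPkm2 against shScr were lost without either shPkm2 library (up to 0.0556 and 0.0756).

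Reads could be shared with other genes at 2 members. In the GENCODE annotation, exons of Mrpl47 on the opposite strand cover 452 bases (11.6%) of Actl6a exons, and Gm26904 covers 772 bases (11.3%) of Bicral exons on the opposite strand. The overlap was at most 1.11% for any other member. Whether strand was used in counting is not given in the sources used here, so such reads cannot be told apart. The members are also paralogues of each other (Brd7 and Brd9, Bicra and Bicral, Bcl7a, Bcl7b and Bcl7c), and reads that fit more than 1 of them would be split by the authors' estimate.

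The other SWI/SNF subunits gave a frame for these values. Of 19 listed genes, 17 were tested, since Actl6b and Dpf3 were too low. In shPkm1, 8 passed the test, 4 higher and 4 lower (median log2 fold change of the 17 genes -0.01), where 63.1% of all genes passed. In shPkm2, 12 passed, 10 higher and 2 lower (0.41), where 68.0% passed, 33.9% higher and 34.2% lower. Between the hairpin groups 11 passed, 9 higher and 2 lower (0.43), where 53.0% passed, 25.7% higher and 27.3% lower. With library totals the higher and lower calls were 6 and 2, 15 and 2, and 11 and 2. Among the 12643 genes tested they were then 5116 and 2656, 6095 and 2702, and 4280 and 2699. The ATPase Smarca2 (BRM) rose most in shPkm1 (2.15, adjusted p = 6.48e-08), followed by the PBAF subunit Phf10 (0.65, adjusted p = 1.02e-04). The other ATPase, Smarca4, is named here after its values were seen. It was lower in shPkm1 (-0.45, adjusted p = 0.0038) and higher in shPkm2 (0.32, adjusted p = 0.0233), both against shScr. In shPkm2 Phf10 gave 0.02 against shScr (adjusted p = 0.841). Arid2, which like Pbrm1 defines PBAF and is named here after its values were seen, was higher in both hairpin groups (0.50, adjusted p = 0.00162, and 0.75, adjusted p = 4.25e-05). Smarca2 and Phf10 were lower in shPkm2 than in shPkm1 (-1.28, adjusted p = 3.63e-06, and -0.63, adjusted p = 1.61e-04). Smarcd1 (1.10, adjusted p = 7.88e-07) and Arid1a (0.95, adjusted p = 4.42e-06), the latter a subunit that defines canonical BAF, rose most in shPkm2. Smarcd3 (BAF60C) and Dpf2 fell most in both, with -0.85 and -0.49 in shPkm1 (adjusted p = 9.99e-06 and 7.03e-04) and -0.97 and -0.59 in shPkm2 (adjusted p = 1.87e-06 and 1.13e-04). Dpf1 (0.88, adjusted p = 0.00691) and Arid1a (0.78, adjusted p = 4.40e-05) were the largest rises from shPkm1 to shPkm2.

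Genes with the most similar pattern were sought for 4 members as the smallest Euclidean distance of centred log2 CPM over the 6 libraries, among 10741 genes. The nearest to Pbrm1 was Tbc1d32 (distance 0.0665), followed by Emsy (0.0792) and Dennd3 (0.0997). For Bicral they were Ttc37 (0.116), Kifap3 (0.122) and Cdr2l (0.124), and for Bcl7a they were Pard3 (0.0786), Mrps14 (0.0903) and Ghitm (0.0904). For Actl6a they were Asap3 (0.0928), Card6 (0.103) and Umps (0.117). Asap3, for example, had CPM of 25.7 and 26.2 in shScr, 20.3 and 21.2 in shPkm1, and 40.6 and 38.5 in shPkm2. With 6 libraries in 3 groups such likeness mainly reflects the 3 group levels.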

How the data were processed

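Expression was measured by RNA sequencing in 6 C2C12 libraries, 2 per group by sample title. Each row of the deposited table is a RefSeq transcript. Per the file headers it gives estimated counts, FPKM and TPM per library. The deposited estimated counts are not whole numbers and were made by the authors. The authors scaled the deposited FPKM to transcript length and library size, and the deposited TPM to length and a fixed sum. Per the submitters' processing notes, HISAT, StringTie, Bowtie, RSEM, DESeq2 and the build mm10 were used, with no versions or roles. Strand is not given in the sources used here. The authors' 9 columns of group means were not used.

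Counts were summed per NCBI gene and rounded. Replicate libraries differed by more than sampling noise (chi-square per degree of freedom 30.8 for the control pair, against 5.94 for shPkm1 and 6.66 for shPkm2). The control pair differed most on this measure, which uses raw counts and weighs abundant genes most. Spread was not estimated per group, and the model shares 1 spread over the groups. Symbols matched 17445 of 17558 genes, and the other 113 held at most 0.148% of a library's counts. Genes were tested with edgeR 4.0.16 in R 4.3.3 (TMM, filterByExpr with minimum count 10 and minimum total 15, 1 coefficient per group, quasi-likelihood F-test, two-sided). P-values were adjusted by Benjamini-Hochberg over all 12643 genes tested, with a threshold of 0.05. Transcripts were fitted likewise (33433 tested), and a transcript was set against its gene with diffSpliceDGE. The latter test and the removal of 1 Bicral transcript were chosen after the data had been seen. The model assumes that the 2 libraries of a group, and the shared spread of all 3 groups, describe replicate error. The tests were tried on simulated counts first.

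Alternatives were DESeq2 size factors, library totals, no filter, only genes with a mean count of 50 or more, DESeq2 1.42.0, a fit of the 2 groups compared alone, a replicate block, leaving out each library, and limma 3.58.1 on log2(FPKM + 1) and log2(FPKM + 0.1). The named genes are the 10 members, Pkm, Myog and Mki67, for each comparison the 2 largest rises and falls among the other SWI/SNF subunits called with a mean of at least 50 counts and no overlap, and the 3 genes nearest in pattern to 4 members. Ss18l1, Actl6b and Dpf3 were named outside this rule, and so were Arid2 and Smarca4 after their values were seen. Sequences and start sites are from RefSeq (GRCm38.p6), gene positions from GENCODE (GRCm38). The members and all gene lists were chosen with earlier results of these data known.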

Additional observations from a re-analysis of the deposited data

How the results depend on the processing

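The 10 genes in 3 comparisons give 30 fold changes, each computed under 15 alternatives. Of these 450 values, 388 kept their direction and their side of the threshold, 35 lost a call with the sign kept, 13 gained one and 14 changed sign, 0 of them with a call under the alternative. Of the 14, 3 (Bcl7b in shPkm2 against shScr) also lost a call, which makes 38 calls lost. With library totals, log2(FPKM + 1) and log2(FPKM + 0.1), the changes of sign were Bcl7a in shPkm1 (0.08, 0.06 and 0.08), Bcl7b in shPkm1 (0.14, 0.14 and 0.14), Bicra in shPkm2 (0.19, 0.19 and 0.21) and Bcl7b in shPkm2 (0.02, 0.02 and 0.02), all against shScr. With single libraries left out, Bcl7b in shPkm1 ran from -0.13 to 0.03, and Bcl7c in shPkm2 against shPkm1 from -0.05 to 0.16. With XM_017317377.1 removed and library totals, Bicral in shPkm2 against shPkm1 was 0.11. The cause was not tested.

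Counts of called members ran from 4 to 7, 8 to 9 and 5 to 7 when single libraries were left out, against 6, 9 and 6. For the other subunits the ranges were 7 to 12, 11 to 13 and 10 to 13, and for all genes 6047 to 8285, 7231 to 8793 and 4939 to 7987. Counts of called member transcripts moved more. In shPkm1 the 4 became 2 with no filter, 11 with DESeq2, 1 with only the groups compared, 1 with the replicate block, 2 with log2(FPKM + 1), 0 to 4 with a library left out and 1 by the test against the gene. In shPkm2 the 7 became 15 with DESeq2, 4 with the replicate block, 2 to 7 with a library left out and 1 by the test against the gene. Between the hairpin groups the 3 became 5 with DESeq2, 0 to 3 with a library left out and 0 by the test against the gene.

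Replicate numbers did not pair the samples: the correlations of same-numbered deviations between groups were -0.0256, 0.0418 and 0.0527. With the replicate block the members called stayed at 6, 9 and 6. With 2 libraries per group, a difference that missed the threshold is not shown to be absent.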
